A study of Mus musculus with 27 samples.

Results

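The 31 genes described here encode mouse potassium channels opened by voltage, by calcium or by sodium, with the auxiliary subunits of the calcium-activated BK channel. They were taken by symbol from the count tables, and all 31 were found. They comprise 5 Kcna, 3 Kcnc, 2 Kcnd, 6 Kcnh, 2 Kcnq, 3 Kcnn and 2 Kcnt genes, Kcnma1 with Kcnmb2 and Kcnmb4, and Kcnb2 with the silent subunits Kcnf1, Kcng1, Kcns2 and Kcnv1. Single-nucleus RNA sequencing (snRNA-seq) was performed on hippocampi of 27 mice, 1 library per mouse, to ask how the DNA sensor cGAS (gene Cgas) acts in tauopathy. The libraries labelled without the tau transgene were Cgas+/+ (n = 5, 3 male and 2 female), Cgas+/- (n = 2, male) and Cgas-/- (n = 2, male). Those labelled with it were P301S Cgas+/+, P301S Cgas+/- and P301S Cgas-/- (n = 6 each, 3 male and 3 female). The P301S mice carry human tau with an inherited mutation, expressed from the prion promoter of the mouse, so tau is made in many neurons and not in 1 cell type. Cgas was deleted in the whole animal, and the mice were bred by intercrossing F1 litters. The mice were 8 to 9 or 9 to 10 months old, since the accounts of their age differ, and nuclei were sorted from frozen hippocampi by DNA stain, with no gate for a cell type.

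Potassium channels let potassium leave the cell, bring the membrane back to rest and so set how sharp, how late and how often action potentials come. Each family has its own working range. Kv1 channels (Kcna) sit on axons and open near threshold, Kv3 channels (Kcnc) open and close quickly at strong depolarization and let interneurons fire fast, and Kv4 channels (Kcnd) carry the transient current that damps dendrites of pyramidal neurons. Kv7 channels (Kcnq) carry the M current that muscarinic receptors shut. SK (Kcnn) and BK (Kcnma1) channels open with intracellular calcium, and the EAG family (Kcnh) includes ether-a-go-go, Erg and Elk channels.

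The start regions of 3 members that were much higher in inhibitory than in excitatory neurons are shown first, since they differ from each other in base composition. Each is the 300 bases from 250 before to 50 after the RefSeq start site (GRCm38.p6), on the plus strand, with every CG pair in capitals. The windows lie at chr7:46396218-46396517 (Kcnc1), chr10:112270871-112271170 (Kcnc2, 1 of its 4 annotated starts) and chr3:31902453-31902752 (Kcnmb2).
Kcnc1: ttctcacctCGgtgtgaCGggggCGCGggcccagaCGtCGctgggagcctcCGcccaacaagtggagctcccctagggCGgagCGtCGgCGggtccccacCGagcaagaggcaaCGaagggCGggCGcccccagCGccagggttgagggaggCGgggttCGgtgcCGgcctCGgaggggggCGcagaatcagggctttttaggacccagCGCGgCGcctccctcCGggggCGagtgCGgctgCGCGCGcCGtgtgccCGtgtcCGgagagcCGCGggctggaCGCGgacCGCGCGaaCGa
Kcnc2: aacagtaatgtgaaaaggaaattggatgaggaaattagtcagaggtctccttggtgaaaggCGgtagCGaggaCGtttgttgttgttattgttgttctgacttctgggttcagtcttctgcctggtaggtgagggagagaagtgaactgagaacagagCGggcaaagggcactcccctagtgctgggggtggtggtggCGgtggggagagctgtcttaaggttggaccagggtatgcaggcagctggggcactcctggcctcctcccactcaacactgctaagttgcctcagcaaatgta
Kcnmb2: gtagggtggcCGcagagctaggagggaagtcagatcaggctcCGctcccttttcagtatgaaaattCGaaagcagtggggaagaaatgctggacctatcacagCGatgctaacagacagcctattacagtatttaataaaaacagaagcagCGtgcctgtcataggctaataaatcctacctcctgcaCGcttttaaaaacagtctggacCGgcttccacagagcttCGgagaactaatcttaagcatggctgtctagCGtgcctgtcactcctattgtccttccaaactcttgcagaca

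The Kcnc1 window held 41 CG pairs at 74.7% GC, and 3.46% of the 32851 RefSeq promoter windows of the same length held at least as many. The Kcnc2 window held 5 pairs at 52.7% GC and the Kcnmb2 window 9 pairs at 47.7% GC, against a median of 7 pairs over all promoters. Windows were given for 22 of the 31 members (27 windows), with 3 to 48 CG pairs, a median of 17 and a median GC content of 64.3% against 52.7% over all promoters. The letters TATAAA, searched on both strands, were in 0 of the 27 windows and in 13.6% of all promoters, and the MEF2 consensus was in 0 of 27 and in 0.557% of all. These are descriptions of the windows only.

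The libraries held 46091490 to 79484316 unique molecular identifiers (UMIs) each, and 203414 nuclei were kept, 5749 to 12511 per mouse. Nuclei were grouped by clustering without any of the 31 genes and named from marker genes, and a name ending in -like stands for such a cluster. Excitatory neuron-like nuclei (78635) held dentate granule-like (19808), CA1-like (12582), CA3-like (4163) and cortical-like (17224) nuclei and 24858 that fitted no subtype. Inhibitory neuron-like nuclei (12272) held Pvalb-like (3030), Sst-like (2990), Cck-like (1242), Lamp5-like (908) and Vip-like (667) nuclei and 3435 others. The cortical-like share of excitatory nuclei ran from 1.26% to 49.9% between mice. Cgas RNA in microglia-like nuclei of mice without the transgene was at 34.9 ± 2.18 CPM (UMIs per 1000000; SD, n = 5) in libraries labelled Cgas+/+, at 15.9 and 20.8 CPM in the 2 labelled Cgas+/- and at 21.6 and 33.1 CPM in the 2 labelled Cgas-/-. With the transgene it did not fall with the labelled loss, at 37.3 ± 11.1 CPM in libraries labelled P301S Cgas+/+, 42.3 ± 11.2 in P301S Cgas+/- and 50.6 ± 6.87 in P301S Cgas-/- (SD, n = 6 each). Where the deleted part of the gene lies relative to the counted reads is not given in the sources used here, so that this level checks nothing on its own. Sex-linked genes matched the labelled sex in 27 of 27 libraries.

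All levels below are CPM, the member's UMIs per 1000000 UMIs of that class in that mouse, given as mean ± SD over mice with at least 20 nuclei of the class. Reads from introns were counted, and the members' genes span 1.9 to 725 kb, so levels are compared between classes and mice but not between genes. Each nucleus is in 1 class, and an excitatory or inhibitory nucleus is also in at most 1 subtype, so that nuclei of a subtype count in their class too. Differences between classes or subtypes carry no test, because both were made by clustering the RNA of these same nuclei. RNA from broken cells is part of every droplet library. Slc17a7 and Camk2a, which mark excitatory neurons, stood at 22.2% and 7.55% of their excitatory level in oligodendrocyte-like nuclei, at 12.7% and 5.02% in astrocyte-like, at 12.9% and 4.81% in oligodendrocyte progenitor-like, at 27.7% and 10.6% in microglia-like and at 7.23% and 2.58% in choroid plexus-like nuclei. Members with levels below such shares in a class are not described as expressed there.

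**Figure D1:**
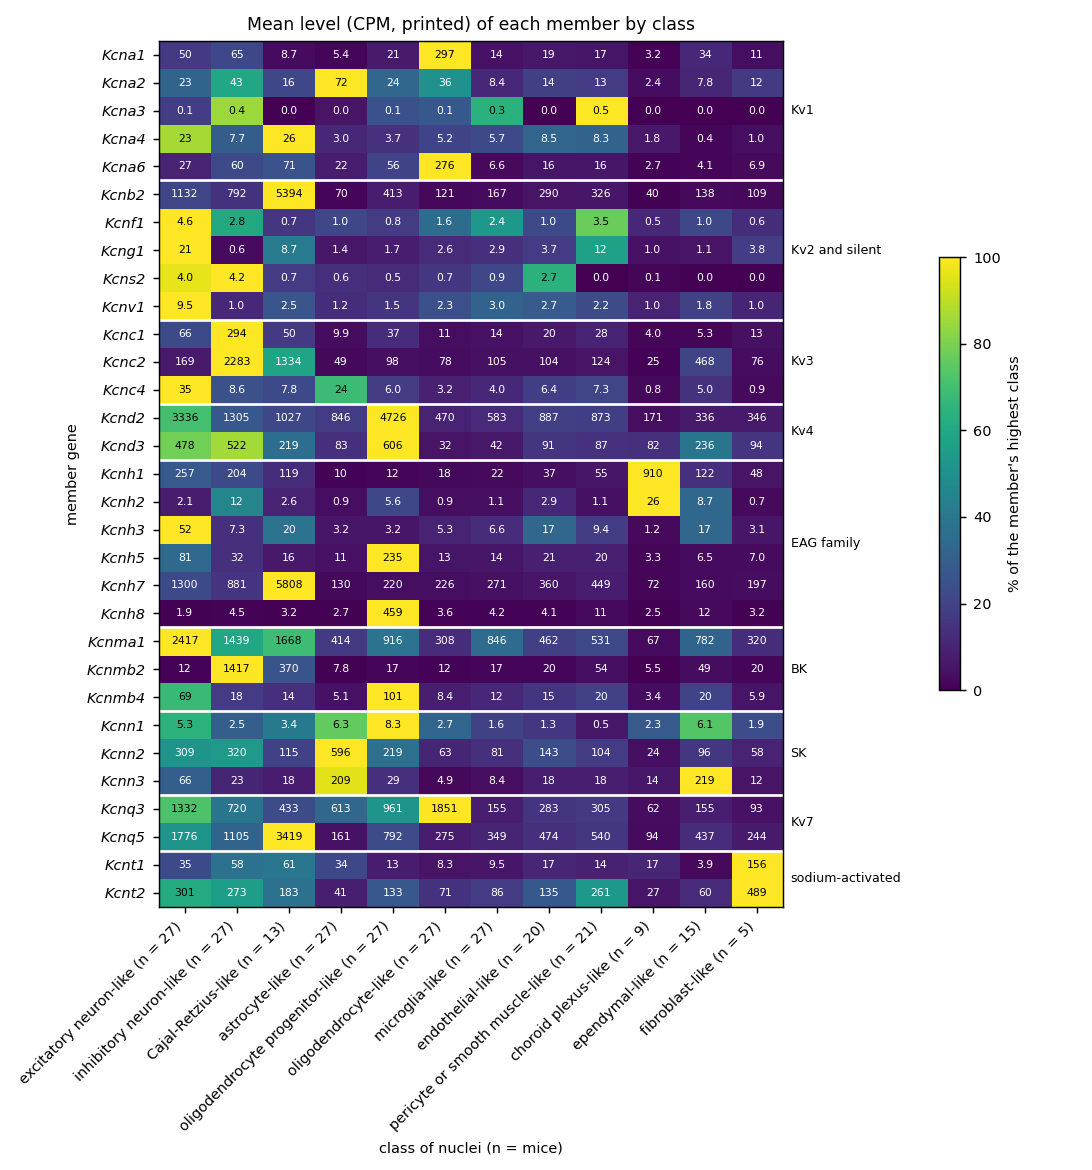
Mean CPM of the 31 members (rows, by family) in 12 classes of nuclei (columns, n = mice with at least 20 nuclei), with the colour giving the percent of the member's highest class. Kcnmb2 and Kcnc2 stand out in inhibitory neuron-like, Kcna1 and Kcna6 in oligodendrocyte-like, Kcnh8 in oligodendrocyte progenitor-like and Kcnh1 in choroid plexus-like nuclei.

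The highest mean was in excitatory neuron-like nuclei for 6 of the 31 members, in oligodendrocyte progenitor-like for 6, in inhibitory neuron-like and Cajal-Retzius-like for 4 each and in oligodendrocyte-like nuclei for 3, with the other 8 spread over astrocyte-like nuclei and 4 rarer classes. Of these classes, pericyte or smooth muscle-like nuclei were highest for Kcna3 alone. It was above 0 there only in P301S Cgas+/+ mice (median 0, highest 10.2 CPM), so that this place rests on hardly any UMIs. Some members were scarce everywhere. The silent subunits Kcns2 and Kcnf1 had 4.03 ± 1.06 and 4.56 ± 2.16 CPM in excitatory and 4.18 ± 1.27 and 2.77 ± 1.52 CPM in inhibitory nuclei, and Kcnn1 had 5.34 ± 1.33 and 2.5 ± 1.2 CPM. Kcna3 gave 59 UMIs in 78635 excitatory and 44 in 12272 inhibitory nuclei, and was at 0 in Cajal-Retzius-like, endothelial-like, choroid plexus-like, ependymal-like and fibroblast-like nuclei, where classes held too few UMIs to measure such a level.

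Inhibitory and excitatory neurons differed most in the BK subunit Kcnmb2 and the Kv3 gene Kcnc2, among the members that were higher in inhibitory nuclei. Kcnmb2 encodes a beta subunit that makes BK channels inactivate. In inhibitory neuron-like nuclei its level was lowest at 1046, median 1406 and highest at 1799 CPM over 27 mice, and in excitatory neuron-like nuclei 3.53, 11.1 and 40.1 CPM. The ranges did not overlap, with means of 1417 ± 188 and 11.5 ± 7.02 CPM. The inhibitory markers Gad1 and Gad2 stood at 321 and 385 CPM in inhibitory and at 11.6 and 2.1 CPM in excitatory nuclei. These means were 27.7-fold and 183-fold apart. In dentate granule-like, CA1-like and cortical-like nuclei Gad1 was at 44.9, 1.43 and 2.19 CPM and Gad2 at 3.0, 1.74 and 2.75 CPM. Kcnmb2 was at 23.9, 4.24 and 6.6 CPM in the same subtypes. The part of RNA from inhibitory neurons in these levels was not tested, and the excitatory level of Kcnmb2 is not described as expression. Kcnc2 had a lowest, median and highest level of 1663, 2317 and 3227 CPM in inhibitory nuclei and of 75.2, 148 and 281 CPM in excitatory nuclei, a 13.5-fold difference of the means. Kcnc1, the other Kv3 subunit of fast-firing interneurons, was 4.46-fold higher in inhibitory nuclei (294 ± 47.2 against 66.1 ± 9.59 CPM), and the Erg gene Kcnh2 5.62-fold (11.8 ± 2.25 against 2.1 ± 0.609 CPM). Kcnc4, of the same family, went the other way, with 34.8 ± 8.31 CPM in excitatory and 8.64 ± 2.27 CPM in inhibitory nuclei.

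In all, 7 of the 31 members were higher in inhibitory than in excitatory nuclei in every one of 27 mice (Kcna2, Kcna6, Kcnc1, Kcnc2, Kcnh2, Kcnmb2 and Kcnt1), against 15.5% of 14587 genes. A further 13 were lower in every mouse, against 11.6% of genes. The A-type subunit Kcna4 was one of them, at 22.6 ± 4.49 CPM in excitatory and 7.71 ± 1.89 CPM in inhibitory nuclei. Others were silent subunits, which form no channel alone and change the gating of Kv2 channels. Kcng1 was at 21.3 ± 6.52 CPM in excitatory and 0.601 ± 0.601 CPM in inhibitory nuclei, and Kcnv1 at 9.47 ± 3.28 and 1.04 ± 0.694 CPM. Kcnh3, an Elk channel of the forebrain, was 7.12-fold and the neuronal BK subunit Kcnmb4 3.92-fold lower in inhibitory nuclei. The pore gene of the BK channel itself, Kcnma1, differed less, with 2417 ± 355 CPM in excitatory and 1439 ± 196 CPM in inhibitory nuclei.

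Within the excitatory nuclei, members separated the fields of the hippocampus. Kcnq5, a subunit of the M current, was lowest at 53.1, median 98.1 and highest at 157 CPM in dentate granule-like nuclei (26 mice), at 834, 1144 and 1680 CPM in CA1-like nuclei (27 mice) and at 1958, 3876 and 6252 CPM in CA3-like nuclei (22 mice). These 3 ranges did not overlap. The CA3-like mean was 40.5-fold above the dentate granule-like mean and 3.42-fold above the CA1-like mean. Kcnq3, the other M current subunit measured, showed no such order, with 1251 ± 155, 1667 ± 313 and 1298 ± 271 CPM in the same order of fields.

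Kcnc2 followed the same order as Kcnq5, from 20.3 ± 5.06 CPM in dentate granule-like to 357 ± 56.3 in CA1-like and 600 ± 145 CPM in CA3-like nuclei, and it was higher in CA3-like than in CA1-like nuclei in 22 of 22 mice although the ranges overlapped. Kcnh7, an Erg channel, had another order. Its level was 83.5 ± 36.9 CPM in CA3-like, 355 ± 83.0 in dentate granule-like, 1666 ± 396 in cortical-like and 2025 ± 604 CPM in CA1-like nuclei. The CA1-like and CA3-like ranges were 1176 to 3240 and 22.4 to 164 CPM, a 24.3-fold difference of the means, while the CA1-like and cortical-like ranges overlapped and CA1-like was higher in 17 of 27 mice. The SK gene Kcnn2, whose channel shapes the afterhyperpolarization and spine responses of CA1 neurons, was 6.50-fold higher in CA1-like than in dentate granule-like nuclei (530 ± 87.2 and 81.6 ± 12.5 CPM).

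Dentate granule-like nuclei were the high end for other members. Kcnc4 was at 54.7 ± 12.6 CPM there and at 5.55 ± 4.37 and 5.13 ± 4.33 CPM in CA1-like and CA3-like nuclei. Cortical-like nuclei had 45.2 CPM of Kcnc4, with a range that overlapped the dentate granule-like range. Kcng1 stood at 38.9 ± 6.85 CPM in dentate granule-like, 10.7 ± 9.54 in CA1-like and 20.1 ± 12.1 CPM in CA3-like nuclei. Of the Kv4 genes, Kcnd2 was highest in CA1-like nuclei (5094 ± 951 CPM) and lowest in cortical-like nuclei (1870 ± 260 CPM), and Kcnd3 had a mean of 684 ± 90.1 CPM in dentate granule-like and 207 ± 149 CPM in CA1-like nuclei. CA3-like and cortical-like nuclei had 578 and 433 CPM of Kcnd3, with ranges that overlapped the dentate granule-like range. Between CA1-like and dentate granule-like nuclei, 6 members were higher and 7 lower in CA1 in each of 26 mice, against 7.68% and 10.4% of genes. Between CA3-like and dentate granule-like nuclei, 5 were higher and 6 lower in CA3 in each of 22 mice, against 5.41% and 8.8% of genes.

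Cortical-like nuclei were named from marker genes of cortical excitatory neurons, and where in the tissue they lay was not measured. They had the highest mean of the 4 excitatory subtypes for 9 members. Kcnt1, a sodium-activated channel, was at 63.2 ± 13 CPM there and at 4.61 ± 1.73 CPM in dentate granule-like nuclei, with ranges that did not overlap. Kcna6 was at 62.5 ± 11 and 21.4 ± 3.51 CPM in the same subtypes. Kcnn1 (9.83 ± 4.57 CPM) and Kcnh5 (148 ± 140 CPM) also had their highest mean in cortical-like nuclei, with 2.40 to 4.34 CPM and 31 to 50.9 CPM in the 3 hippocampal subtypes, and both varied widely between mice.

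**Figure D2:**
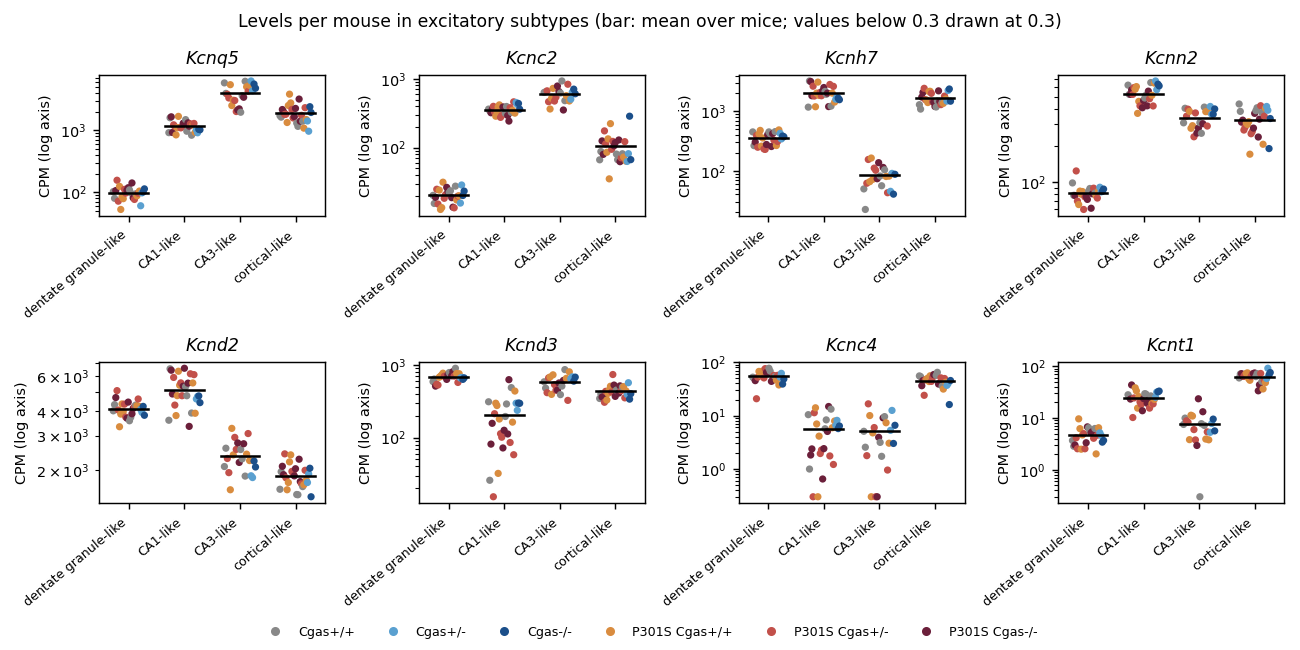
CPM per mouse (points, coloured by genotype, log axis) of 8 members in dentate granule-like (26 mice), CA1-like (27), CA3-like (22) and cortical-like (27) nuclei, with bars at the mean. Kcnq5 and Kcnc2 are lowest in dentate granule-like nuclei, Kcnh7 is lowest in CA3-like nuclei and Kcnc4 is low in CA1-like and CA3-like nuclei, and points of the 6 genotypes lie together.

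Interneuron subtypes were told apart by other members. Pvalb-like nuclei, the class that holds fast-spiking basket cells, had the highest levels of Kcnc1 and Kcnc2. Their Kcnc2 was lowest at 2634, median 4148 and highest at 5165 CPM over 26 mice, against 2113 ± 299 in Sst-like, 1203 ± 351 in Cck-like, 732 ± 187 in Vip-like and 354 ± 92.2 CPM in Lamp5-like nuclei. Kcnc1 had 438 ± 79.8 CPM in Pvalb-like and 188 ± 28.1 CPM in Sst-like nuclei, with ranges that did not overlap. Lamp5-like and Cck-like nuclei had 254 and 252 CPM of Kcnc1. Their ranges overlapped the Pvalb-like range, though Pvalb-like was higher in 23 of 23 mice in both comparisons. The Kv1 subunit Kcna1 (111 ± 29.8 against 42.3 ± 11.3 CPM) and the BK pore Kcnma1 (2425 ± 276 against 1520 ± 148 CPM) were also higher in Pvalb-like than in Sst-like nuclei in 26 of 26 mice. Kcnmb2 was at 1603 ± 209 and 1623 ± 527 CPM in these subtypes, with Pvalb-like values inside the Sst-like range. Kcnc4, the third Kv3 gene, was highest in Lamp5-like nuclei (28.8 ± 10.4 CPM) and at 3.33 ± 2.5 CPM in Pvalb-like nuclei. Kcnh7 was at 1215 ± 203 CPM in Pvalb-like and 292 ± 71.8 CPM in Sst-like nuclei, and Kcnd3 at 144 ± 57.9 and 622 ± 113 CPM, each with ranges that did not overlap. Lamp5-like nuclei had more Kcnh7 (1764 CPM) than Pvalb-like nuclei in 23 of 23 mice.

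Vip-like nuclei were high in Kcnt2, a sodium-activated channel, with a lowest, median and highest level of 1000, 1319 and 1628 CPM over 20 mice. In Pvalb-like nuclei these were 16.8, 41.1 and 102 CPM, so that the means differed 28.2-fold. The nearest subtype was Lamp5-like (343 CPM), with a mean 3.79-fold below the Vip-like mean and ranges that did not overlap. Kcnb2, which encodes a delayed rectifier of the Kv2 family, was at 2455 ± 234 CPM in Vip-like nuclei and at most 767 ± 265 CPM in the other 4 subtypes. Cck-like and Lamp5-like nuclei were high in Kcnq5 (3099 ± 389 and 2540 ± 432 CPM), which stood at 391 ± 106 in Pvalb-like and 298 ± 79.5 CPM in Sst-like nuclei. The ranges of Cck-like and Lamp5-like nuclei overlapped in Kcnq5, with Cck-like higher in 15 of 20 mice. Kcnh1, an ether-a-go-go channel, was at 453 ± 78.5 CPM in Cck-like and 31.4 ± 17.3 CPM in Sst-like nuclei. Kcnn2 stood between 671 ± 90.3 and 759 ± 94.7 CPM in Vip-like, Lamp5-like and Cck-like nuclei, whose ranges overlapped, and at 168 ± 33.1 and 134 ± 33.3 CPM in Pvalb-like and Sst-like nuclei.

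**Figure D3:**
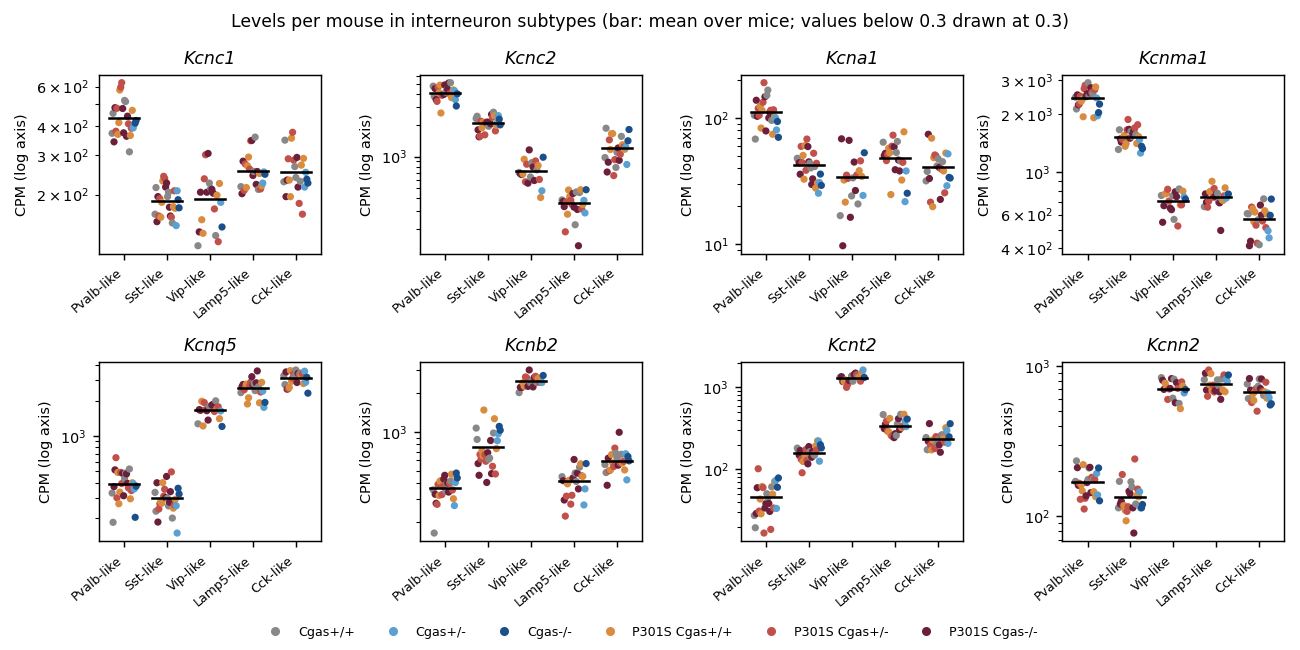
CPM per mouse (points, coloured by genotype, log axis) of 8 members in Pvalb-like (26 mice), Sst-like (26), Vip-like (20), Lamp5-like (23) and Cck-like (23) nuclei, with bars at the mean. Kcnc1 and Kcnc2 are highest in Pvalb-like, Kcnb2 and Kcnt2 in Vip-like and Kcnq5 in Cck-like and Lamp5-like nuclei.

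Glia held channel RNA of their own. In oligodendrocyte-like nuclei the Kv1 gene Kcna1 was lowest at 198, median 271 and highest at 485 CPM and Kcna6 at 209, 279 and 377 CPM (27 mice), 5.91-fold and 10.2-fold above the excitatory means. Both ranges lay above those of excitatory and inhibitory neurons. Kcnq3 was 1.39-fold higher in oligodendrocyte-like than in excitatory nuclei (1851 ± 187 and 1332 ± 142 CPM), in every mouse though with overlapping ranges. These 3 were the only members higher than in excitatory nuclei in all 27 mice, against 32.4% of genes, and 23 were lower in all mice, against 23.2%.

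Oligodendrocyte progenitor-like nuclei stood apart in Kcnh8, an Elk channel, with 363, 464 and 581 CPM (lowest, median and highest of 27 mice) against 1.03, 1.93 and 2.93 CPM in excitatory nuclei. Next highest was the ependymal-like level of 11.8 ± 12.5 CPM. Kcnh5 was at 235 ± 24.6 CPM in progenitors and 13.4 ± 5.08 CPM in oligodendrocyte-like nuclei, and Kcnmb4 at 101 ± 14.8 and 8.41 ± 2.58 CPM. Kcnd2 was at 4726 ± 341 CPM in progenitors, above the excitatory level in 26 of 27 mice, and at 470 ± 137 CPM in oligodendrocyte-like nuclei. Kcna6, Kcnh5 and Kcnh8 were higher than in excitatory nuclei in all 27 mice, against 14.6% of genes, and 16 members were lower, against 14% of genes. Oligodendrocyte-like nuclei were lower than progenitor-like nuclei in all 27 mice for 12 members, against 13.6% of genes, and higher for Kcna1, Kcna6 and Kcnq3, against 14.8%.

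Astrocyte-like nuclei were higher than excitatory nuclei in Kcna2, Kcnn2 and Kcnn3 in all 27 mice, against 34.5% of genes, and lower for 20 members, against 18.8%. Kcnn3, an SK gene, was at 209 ± 35.8 CPM against 66.4 ± 21.7 CPM with ranges that did not overlap, and Kcnn2 at 596 ± 106 against 309 ± 55.4 CPM. Kcna2 was at 72.2 ± 17.2 against 23.3 ± 5.41 CPM. Microglia-like nuclei were higher than excitatory nuclei in all 27 mice for 0 of the 31 members, against 23.9% of genes, and lower for 22, against 14.9%. Kcna3, a Kv1 channel known from microglia and T cells, had 7 UMIs in 11434 microglia-like nuclei and 0 in 21 of the 27 mice, so its level was not measurable there at this depth.

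Rarer classes were seen in fewer mice. In choroid plexus-like nuclei (9 mice) Kcnh1 was lowest at 656, median 895 and highest at 1135 CPM, 3.54-fold above excitatory nuclei, and Kcnh2 was at 25.9 ± 7.76 against 2.10 ± 0.609 CPM. These 2 were higher and 26 others lower than in excitatory nuclei in all 9 mice, against 39.5% and 20.4% of genes. Cajal-Retzius-like nuclei (13 mice) had 5394 ± 1264 CPM of Kcnb2 and 5808 ± 1036 CPM of Kcnh7, 4.76-fold and 4.47-fold above excitatory nuclei. Ependymal-like nuclei (15 mice) had 468 ± 118 CPM of Kcnc2, above excitatory nuclei in 15 of 15 mice, and fibroblast-like nuclei (5 mice) 156 ± 97.0 CPM of Kcnt1, above in 5 of 5.

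Whether the P301S transgene moved any member was asked by comparing P301S Cgas+/+ with Cgas+/+. No member passed in excitatory neuron-like nuclei or in inhibitory neuron-like, dentate granule-like, CA1-like or CA3-like nuclei. UMIs were summed per mouse and class and fitted over all genes with edgeR's quasi-likelihood test, with sex as a covariate and Benjamini-Hochberg adjustment over all genes, and "passed" stands for an adjusted p under 0.05. The low-count filter left 30 members in excitatory, 28 in inhibitory, 29 in dentate granule-like, 29 in CA1-like and 26 in CA3-like nuclei, and Kcna3 in none of them. In excitatory nuclei 0 of 30 members passed, where 0.0237% of 16899 genes did. An unadjusted p under 0.05 was reached by 1 of the 30 members. Pooled over the 15 comparisons of the main classes, 5.37% of gene tests reached it, and the share in this comparison alone is not given here. Of the 30, 8 log2 differences were above 0 and 22 below, with a median of -0.087 against -0.006 over all genes. Kcnn1, the SK gene that had the smallest p in excitatory nuclei, was at 6.22, 6.36, 6.56, 6.62 and 6.75 CPM in the 5 Cgas+/+ mice and at 2.28 (lowest), 4.18 (median) and 6.63 CPM (highest) in P301S Cgas+/+ mice. Its log2 difference was -0.58 ± 0.163 (SE), with an adjusted p of 1.0 in edgeR's test with Benjamini-Hochberg adjustment. Of the 6 P301S mice, the highest lay within the Cgas+/+ range and the others below it. Split by the Cell Ranger version in the file headers, the means were 6.42 and 5.95 CPM (Cgas+/+ and P301S Cgas+/+, n = 2 each) in libraries of the earlier version, where the groups overlapped, and 6.56 and 3.54 CPM (n = 3 and 4) in those of the later version, where they did not.

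In the other main classes, the member of smallest p with the transgene was Kcnn1 again in inhibitory nuclei, at 1.19, 2.69, 2.83, 3.5 and 5.04 CPM in Cgas+/+ and at 0 (lowest), 1.45 (median) and 2.51 CPM (highest) in P301S Cgas+/+ mice. These levels rest on few UMIs and overlapped, with a log2 difference of -0.96 ± 0.352. In dentate granule-like nuclei it was Kcnh3, at 43, 44.3, 48.9, 53.7 and 57.8 CPM in Cgas+/+ and at 27.3, 40.5 and 55.5 CPM in P301S Cgas+/+ mice (-0.26 ± 0.142). In CA1-like nuclei it was Kcnmb2, at 2.53 to 10.6 CPM and 1.65 to 6.54 CPM (-0.70 ± 0.476). In CA3-like nuclei it was Kcnc2, at 481, 622, 634, 646 and 931 CPM in Cgas+/+ and at 364, 476, 521, 569 and 726 CPM in the 5 P301S Cgas+/+ mice measured (-0.41 ± 0.169). The groups overlapped for all 4, and none passed, with adjusted p of 1.0 for each in edgeR's test with Benjamini-Hochberg adjustment. The background was 0.00791% of genes called in inhibitory, 0.00781% in dentate granule-like, 0.00819% in CA1-like and 0.0107% in CA3-like nuclei.

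Next, the effect of Cgas on mice with the transgene was asked by comparing P301S Cgas-/- and P301S Cgas+/- with P301S Cgas+/+. Both comparisons and the one above use the same 6 P301S Cgas+/+ libraries, so they are not independent of each other. In excitatory nuclei 0 of 30 members passed in either, where 0% of 16899 genes did, with 5 members under an unadjusted p of 0.05 for the deletion and 7 for the heterozygous loss, where 13.5% and 11.8% of genes were. The smallest p in both was that of Kcnh5, an ether-a-go-go channel. Its level was lowest at 39.9, median 56.8 and highest at 76.0 CPM in P301S Cgas+/+, at 67.7, 108 and 202 CPM in P301S Cgas+/- and at 50.1, 103 and 182 CPM in P301S Cgas-/- mice. The Cgas+/+ mice without the transgene were at 43.5, 46.2, 49.8, 54.1 and 64.0 CPM. In each of the groups with 1 or no Cgas copy, 5 of 6 P301S mice lay above the P301S Cgas+/+ range and 1 lay within it.

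The log2 difference of Kcnh5 was 0.93 ± 0.214 for the deletion and 1.01 ± 0.214 for the heterozygous loss, with adjusted p of 0.193 and 0.178 in edgeR's test with Benjamini-Hochberg adjustment. DESeq2, with its own size factors, gave 0.0247 and 0.00749 and called 0.574% and 0.811% of genes in these comparisons, where edgeR called 0%. The cortical-like share of excitatory nuclei moved with these groups, at 14.3 ± 14.1% in P301S Cgas+/+, 31.7 ± 12.3% in P301S Cgas+/- and 31.1 ± 8.90% in P301S Cgas-/- mice, and cortical-like nuclei had the highest Kcnh5 mean. Over hippocampal-like nuclei alone the differences were 0.02 ± 0.151 and 0.11 ± 0.151. Within cortical-like nuclei they were 0.55 ± 0.832 and 0.61 ± 0.818.

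In inhibitory nuclei the Kv3 genes Kcnc1 and Kcnc2 were looked at for their own sake. The study reported both among the genes raised by Cgas deletion in interneurons of P301S mice, with nuclei and not mice as units. Kcnc1 was lowest at 251, median 287 and highest at 385 CPM in P301S Cgas+/+, at 239, 284 and 404 CPM in P301S Cgas+/- and at 234, 290 and 324 CPM in P301S Cgas-/- mice. Kcnc2 was at 1663, 2245 and 2601 CPM, at 1954, 2337 and 2487 CPM and at 1800, 2296 and 3227 CPM in the same groups. The ranges of the 3 groups lay over each other for both genes. The log2 differences from P301S Cgas+/+ were -0.15 ± 0.120 and -0.02 ± 0.120 for Kcnc1, and 0.11 ± 0.144 and 0.01 ± 0.143 for Kcnc2, with adjusted p of 0.985 to 1.0 in edgeR's test with Benjamini-Hochberg adjustment. Against Cgas+/+ mice the P301S Cgas+/+ mice differed by 0.04 ± 0.126 and -0.18 ± 0.150. Of all 28 members tested in inhibitory nuclei 0 passed with the deletion or the heterozygous loss (0% and 0.00791% of 12646 genes). Kcnf1 had the smallest p with the deletion, at 0.605, 1.6 and 4.18 CPM (lowest, median, highest) in P301S Cgas+/+ and 1.63, 3.56 and 6.81 CPM in P301S Cgas-/- mice, on 293 UMIs over all 27 mice. Kcnh3 had it with the heterozygous loss, at 1.2, 5.83 and 7.44 CPM in P301S Cgas+/+ and 7.73, 9.8 and 13.2 CPM in P301S Cgas+/- mice, which did not overlap. The log2 differences were 1.08 ± 0.367 and 1.01 ± 0.272, with adjusted p of 0.653 and 0.405 in edgeR's test with Benjamini-Hochberg adjustment.

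In dentate granule-like nuclei Kcnmb2 was at 6.68, 27.4 and 43.3 CPM (lowest, median, highest) in P301S Cgas+/+ and at 5.26, 6.13 and 16.6 CPM in P301S Cgas+/- mice. The log2 difference was -2.04 ± 0.563 with an adjusted p of 0.989 in edgeR's test with Benjamini-Hochberg adjustment, and the levels stayed far below the inhibitory level. In CA3-like nuclei, which 5 P301S Cgas+/+, 5 P301S Cgas+/- and 3 P301S Cgas-/- mice gave, the smallest p was that of Kcnq5 with the deletion. The 5 P301S Cgas+/+ mice had a median of 5034 CPM (2510 to 5445) and the 3 P301S Cgas-/- mice were at 2134, 2220 and 3413 CPM. The ranges overlapped, and the difference was -0.73 ± 0.295 with an adjusted p of 0.991 in edgeR's test with Benjamini-Hochberg adjustment. Kcnn3 had the smallest p with the heterozygous loss there, at 8.49, 32.9, 39.2, 40.9 and 42.6 CPM in the 5 P301S Cgas+/+ mice and a median of 10.8 CPM (8.83 to 29.8) in the 5 P301S Cgas+/- mice (-1.34 ± 0.396, adjusted p = 0.439 in the same edgeR test). The groups overlapped through 1 low P301S Cgas+/+ mouse.

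In CA1-like nuclei the smallest p with the deletion was that of Kcnt2, at 226, 307 and 448 CPM in P301S Cgas+/+ and 197, 230 and 393 CPM in P301S Cgas-/- mice (-0.31 ± 0.238). With the heterozygous loss it was that of Kcna6, at 2.59, 10.2 and 22.8 CPM in P301S Cgas+/+ and 3.22, 4.73 and 8.94 CPM in P301S Cgas+/- mice (-1.16 ± 0.508). In dentate granule-like nuclei the smallest p with the deletion was that of Kcnq5, at 53.1, 86.5 and 125 CPM in P301S Cgas+/+ and 81.5, 108 and 142 CPM in the 5 P301S Cgas-/- mice measured (0.32 ± 0.173). All 3 pairs of groups overlapped. No gene of any kind passed in these 6 comparisons (0%).

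Members that were high in glia passed in no comparison of genotypes. In oligodendrocyte-like nuclei Kcna1 was at 208 to 375 CPM in the 5 Cgas+/+ mice, at a median of 282 (253 to 358) in P301S Cgas+/+, 315 (244 to 485) in P301S Cgas+/- and 323 (261 to 412) in P301S Cgas-/- mice. Kcna6 there was at 225 to 264 CPM in Cgas+/+ and 261 to 331 CPM in P301S Cgas+/+ mice, a log2 difference of 0.34 ± 0.130 with an adjusted p of 0.676 in edgeR's test with Benjamini-Hochberg adjustment. In progenitor-like nuclei Kcnh8 was at 396 to 581 CPM in Cgas+/+ and at medians of 473 CPM in P301S Cgas+/+, 432 in P301S Cgas+/- and 463 CPM in P301S Cgas-/- mice. In astrocyte-like nuclei Kcnn3 was at 189 to 293 CPM in Cgas+/+ and 142 to 232 CPM in P301S Cgas+/+ mice, a log2 difference of -0.28 ± 0.145 with an adjusted p of 0.460 in edgeR's test with Benjamini-Hochberg adjustment. With the transgene none of the members tested passed in oligodendrocyte-like (26 tested), astrocyte-like (25), progenitor-like (21) or microglia-like nuclei (18), where 0.00809%, 0.0077%, 0.0115% and 0% of genes did, and 0 passed with the deletion or the heterozygous loss (0% of genes). The signs leaned one way with the transgene in 3 of these classes. Oligodendrocyte-like nuclei had log2 differences below 0 for 21 of 26 members, astrocyte-like nuclei for 21 of 25 and microglia-like nuclei for 16 of 18, with medians of -0.253, -0.289 and -0.239 against -0.001, -0.011 and -0.019 over all genes. Most of these members had lower levels in glia than in excitatory nuclei. The neuronal markers Slc17a7 and Camk2a were also lower on average in P301S Cgas+/+ than in Cgas+/+ mice in these classes. Slc17a7 was at 31.6 ± 9.83 against 43.7 ± 13.7 CPM in oligodendrocyte-like, 16.1 ± 6.25 against 24.0 ± 6.94 CPM in astrocyte-like and 36.7 ± 9.83 against 55.0 ± 17.4 CPM in microglia-like nuclei (SD, n = 6 and 5). Camk2a was at 103 ± 33.1 against 113 ± 24.6, 66.3 ± 17.6 against 77.4 ± 8.57 and 147 ± 42.2 against 178 ± 47.7 CPM in the same order, and the groups overlapped for both markers in each class. The part of RNA from other cells in these signs was not tested.

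In Pvalb-like nuclei Kcnq3 was chosen after its values were seen, since it passed with DESeq2 (heterozygous loss) and in fits without a low-count filter (both comparisons). It was at 384 to 751 CPM in 5 P301S Cgas+/+, 573 to 1254 CPM in 6 P301S Cgas+/- and 613 to 897 CPM in 6 P301S Cgas-/- mice, all overlapping. The log2 differences were 0.69 ± 0.178 for the heterozygous loss and 0.53 ± 0.178 for the deletion, with adjusted p of 0.271 and 0.446 in edgeR's test with Benjamini-Hochberg adjustment. Kcnc2 in Pvalb-like nuclei differed by 0.13 ± 0.139 with the deletion and Kcnc1 by -0.15 ± 0.143.

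**Figure D4:**
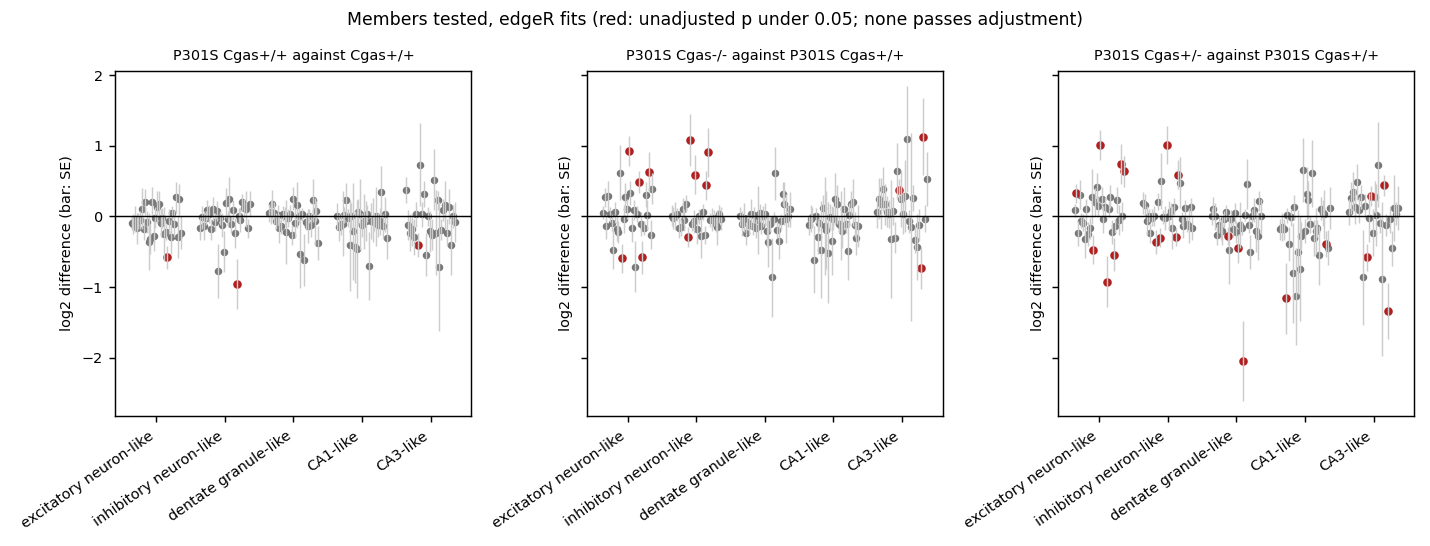
Log2 difference of each member tested (points, with bars for 1 SE) in 5 classes and 3 comparisons, with red for an unadjusted p under 0.05. The differences scatter on both sides of 0, the widest bars belong to members with few counts, and 0 of the 426 values passed after adjustment.

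Over these 15 comparisons 0 of 426 tests of a member passed, where 9 of 191685 tests of any gene did (0.0047%), and the lowest adjusted p was 0.178 in edgeR's test with Benjamini-Hochberg adjustment. An unadjusted p under 0.05 was reached by 37 of the 426 (8.69%) and by 5.37% of all gene tests. Dentate granule-like, CA1-like and CA3-like nuclei are also part of the excitatory nuclei, and all comparisons use the P301S Cgas+/+ mice. The 426 tests are therefore not independent of each other, and whether the 2 shares differ was not tested. In 14 other classes and subtypes 0 of 741 tests of a member passed in 39 comparisons, where 0% to 2.04% of genes did, with 72 under an unadjusted p of 0.05 (9.72% against 5.38% of genes). Of 66 further potassium channel genes (19 other pore subunits, 20 auxiliary subunits, 27 inward rectifier and 2-pore channels), 0 of 540 tests passed in the 15 main comparisons. Dpp10, an auxiliary subunit of Kv4 channels, differed by 1.05 ± 0.383 in excitatory nuclei with the deletion (adjusted p = 0.254 in edgeR's test with Benjamini-Hochberg adjustment), and Kcnab2, Kcnj9 and Kcnip2 by -0.37 ± 0.159, 0.31 ± 0.166 and -0.50 ± 0.267. The study reported these genes as rescued by the deletion in P301S mice, with nuclei as units. It named Dpp10 and Kcnab2 in excitatory and Kcnj9 and Kcnip2 in inhibitory neurons.

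The 2 Cgas-/- mice without the transgene allowed a further question, whether the deletion acted differently with and without P301S. In excitatory nuclei 1 member passed. There the 5 Cgas+/+ mice had 6.22 to 6.75 CPM of Kcnn1 and the 2 Cgas-/- mice 3 and 3.33 CPM, while with P301S the Cgas+/+ mice had 2.28 to 6.63 and the Cgas-/- mice 5.40, 5.96 and 7.56 CPM (lowest, median, highest). Kcnn1 was thus lower in Cgas-/- mice without the transgene and higher, with overlap, in those with it. The log2 difference of the differences was 1.56 ± 0.286, with an adjusted p of 0.0471 in edgeR's test with Benjamini-Hochberg adjustment, 1 of 30 members where 0.371% of 17766 genes passed. Without P301S the difference itself was -1.07 ± 0.239, with an adjusted p of 0.451 in the same edgeR test, and 0 of 30 members and 0% of genes passed. In inhibitory nuclei 0 of 29 members and 0% of genes passed in either comparison. Of the further potassium channel genes only Lrrc55, a gamma subunit of BK channels, passed in the excitatory test of the deletion with and without P301S (1.66 ± 0.374, adjusted p = 0.0497 in edgeR's test with Benjamini-Hochberg adjustment). That call lay closer to the threshold than the Kcnn1 call and rests on the same 2 Cgas-/- mice. It was lost without P301S Cgas-/- replicate 2, where 0 of 17703 genes passed. The call was also lost without Cgas-/- replicate 1 or without Cgas-/- replicate 2, each of which leaves 1 mouse in that group. Some other omissions, such as that of Cgas+/+ replicate 3, left 1 gene called in all, and whether that gene was Lrrc55 is not given here.

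The Kcnn1 call sat at the threshold. Kcnn1 had 3935 UMIs over 78635 excitatory nuclei. The cortical-like share was 18.5 ± 8.82% in Cgas+/+ (n = 5), 1.26% and 6.11% in the 2 Cgas-/- mice, 14.3 ± 14.1% in P301S Cgas+/+ and 31.1 ± 8.90% in P301S Cgas-/- mice (n = 6 each), and cortical-like nuclei had the highest Kcnn1 mean of the excitatory subtypes. Over hippocampal-like nuclei alone the value was 0.80 ± 0.365 with an adjusted p of 1.0 in edgeR's test with Benjamini-Hochberg adjustment, and within cortical-like nuclei 0.64 ± 0.735. With the cortical-like share as a covariate it was 1.37 ± 0.327 (adjusted p = 0.724 in the same edgeR test). Among the 12 libraries whose file headers name the earlier Cell Ranger version, all male and 2 per group, the means were 6.42 (Cgas+/+), 3.16 (Cgas-/-), 5.95 (P301S Cgas+/+) and 6.88 CPM (P301S Cgas-/-). Among the 15 libraries of the later version they were 6.56 (Cgas+/+, n = 3), 3.54 (P301S Cgas+/+, n = 4) and 5.87 CPM (P301S Cgas-/-, n = 4). No Cgas-/- mouse without the transgene is among those 15, so that the difference of the differences has no value there. Leaving out 1 mouse lost the call in 12 of 19 cases, named here with the adjusted p without each, all from edgeR's test with Benjamini-Hochberg adjustment. These were Cgas+/+ replicates 3 and 4 (0.0683 and 0.0823), P301S Cgas+/+ replicates 2, 3, 4 and 5 (0.0575, 0.0539, 0.0801 and 0.0563) and P301S Cgas-/- replicates 2, 3, 5 and 6 (0.102, 0.0697, 0.071 and 0.0631), and also Cgas-/- replicates 1 and 2 (0.457 and 0.178). These last 2 omissions leave 1 mouse in the Cgas-/- group, which is then assumed to vary like the other groups. The difference stayed between 1.37 and 1.62 over the 19.

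**Figure D5:**
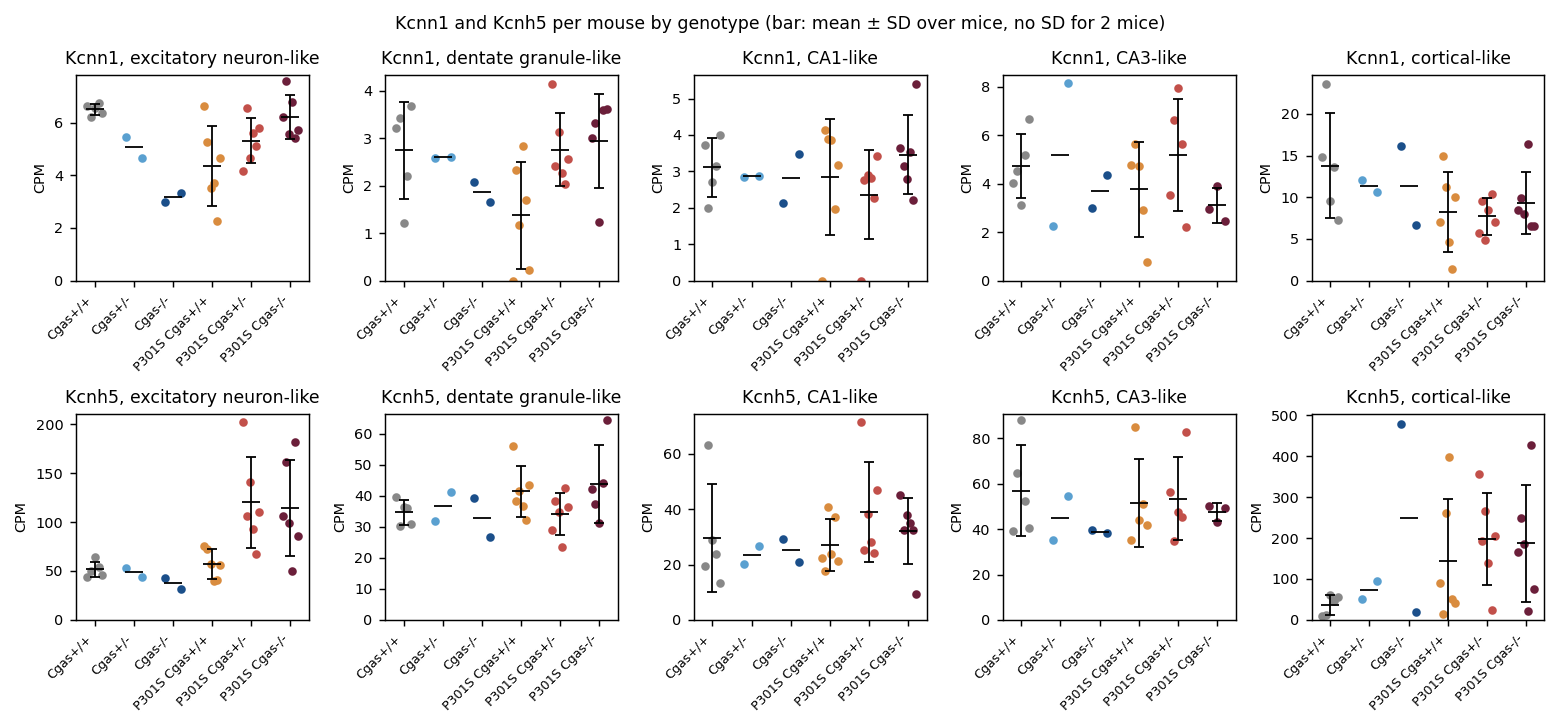
CPM per mouse (points) of Kcnn1 (top) and Kcnh5 (bottom) by genotype in all excitatory neuron-like nuclei and in 4 subtypes, with bars at the mean ± SD over mice (no SD for 2 mice). Over all excitatory nuclei Kcnn1 is near 3 CPM in the 2 Cgas-/- mice and Kcnh5 is high in P301S Cgas+/- and P301S Cgas-/- mice, while within each subtype the 3 P301S groups overlap.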

How the data were processed

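Nuclei from frozen hippocampi of 27 mice (6 genotypes) were captured with 10x 3' reagents, 1 library per mouse. The authors aligned reads to mm10 with Cell Ranger, counting introns, and deposited whole-number UMI counts per gene and barcode (241938 barcodes). The processing notes name Cell Ranger 3.1.0 and Seurat 3.0, and the file headers name 3.0.2 for 12 libraries, all male, 2 per group, and 3.1.0 for 15. Median UMIs per barcode ran from 2225 to 8996. Pairs of libraries shared 8 to 48 barcodes, at most 0.57% of either. Because 3' reads carry UMIs, molecules and not reads are counted, but counts near 0 stay imprecise.

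Barcodes were filtered as in the study, by 200 to 4000 genes detected and a mitochondrial share of UMIs up to 5%, leaving 221281. Simulated doublets were scored by neighbours, and 17867 likely doublets were removed, at 0.8% per 1000 barcodes. The remaining 203414 nuclei were clustered with scanpy 1.11.5 on 2000 variable genes, 30 principal components and 15 neighbours, without the 31 members and 66 other potassium channel genes. Of 41 clusters, 34 were named from fixed marker lists, and 7 (7.24% of nuclei) stayed unnamed. Excitatory and inhibitory nuclei were clustered again for subtypes, and no CA2-like cluster was found. Naming thresholds were revised after markers and leading genes were seen and before genotypes were compared. Levels are CPM over mice with at least 20 nuclei of a class, which left out P301S Cgas-/- replicate 2 from dentate granule-like nuclei, P301S Cgas-/- replicates 1, 2 and 6, P301S Cgas+/+ replicate 2 and P301S Cgas+/- replicate 5 from CA3-like nuclei, and P301S Cgas+/+ replicate 3 from Pvalb-like and Sst-like nuclei.

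UMIs were summed per mouse and class and fitted with edgeR 4.0.16 (TMM factors, filterByExpr, robust quasi-likelihood test, sex as covariate), with Benjamini-Hochberg adjustment over all genes. The SE of an edgeR log2 difference is its size divided by the square root of the test's F statistic. The study tested nuclei, which are not replicates, so mice were used here. The transgene, deletion and heterozygous comparisons used 23 mice of 4 groups. The comparison of the deletion with and without P301S and that without P301S used 27. Tests were checked on simulated counts. Alternatives were DESeq2 1.42.0, RLE factors, no low-count filter, no covariate, the header version as a block, doublets kept, nuclei over 4000 genes kept, hippocampal-like nuclei only, 2 groups alone, all 27 mice and each mouse left out. The cortical-like share as covariate and omissions in the comparisons on 27 mice were added after seeing the data. Members and lists were chosen with earlier results of these data known. Named in the genotype comparisons were members that passed, the member of smallest p per class and comparison, and Kcnc1 and Kcnc2 in inhibitory nuclei, and across classes the 2 members of highest mean in each of 9 structural groups, with others chosen after their values were seen. Promoter windows are RefSeq's. Protein sequences were not used here.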

Additional observations from a re-analysis of the deposited data

Results flagged for a closer look

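Of 61 sets of values (1 named member in 1 class and 1 group of 4 to 10 mice), 4 held a mouse far from the others, where chance alone gives about 1 in 20. Kcnmb2 in dentate granule-like nuclei was at 16.6 CPM in P301S Cgas+/- replicate 1 and at 5.26 to 6.58 CPM in the other mice of that group. Kcnn1 in inhibitory neuron-like nuclei was at 4.55 CPM in P301S Cgas+/- replicate 2 against 1.34 to 2.37 CPM. Kcnn3 in CA3-like nuclei was at 8.49 CPM in P301S Cgas+/+ replicate 3 against 32.9 to 42.6 CPM in 4 others, and Kcnt2 in CA1-like nuclei at 393 CPM in P301S Cgas-/- replicate 6 against 197 to 263 CPM.

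The effect of the Cgas deletion on Kcnn1 in excitatory neuron-like nuclei differed with and without P301S by a log2 difference of 1.56, adjusted p = 0.0471 in edgeR's test with Benjamini-Hochberg adjustment. Over its alternatives, mouse omissions included, the adjusted p ran from 5.25e-05 to 1.0.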

How the results depend on the processing

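No paired analysis was possible because the labels carry no shared replicate numbers. Member counts were 0 in every comparison but the deletion with against without P301S in excitatory nuclei (1, Kcnn1). DESeq2 gave 2 there (Kcnh5, Kcnn1), where it called 4.82% of genes and edgeR 0.371%. It gave 1 with the deletion and 1 with the heterozygous loss (Kcnh5 up in both, with 0.574% and 0.811% of genes called) and 1 for Cgas-/- against Cgas+/+ without P301S (Kcnn1 down, 0.293% of genes). For the deletion with against without P301S the count was 0 with RLE factors, no covariate, no low-count filter, the cortical-like share as covariate or hippocampal-like nuclei only, where the log2 difference of Kcnn1 was 1.53, 1.5, 1.55, 1.37 and 0.80 against 1.56, with adjusted p of 0.0522, 0.052, 0.0721, 0.724 and 1.0 in edgeR's test with Benjamini-Hochberg adjustment against 0.0471. It was 0 to 3 over 19 omissions of a mouse, in which 0% to 5.28% of genes were called, with 3 (Kcnh5, Kcnn1 and Kcnt1) without Cgas+/+ replicate 2, where 4.83% of genes were called. In CA3-like nuclei the fit with no filter called 1 member with the deletion (Kcnq5 down, 0.209% of genes) and 2 with the heterozygous loss (Kcnd3 and Kcnn3 down, 1.52% of genes), where the filtered fit called 0% of genes. In the transgene, deletion and heterozygous comparisons of other classes DESeq2 called 1 (Kcnq3 up in Pvalb-like, heterozygous, 0.414% of genes), no filter 6 (Kcnq3 up in Pvalb-like and endothelial-like, Kcnd2 up in Sst-like and down in Cajal-Retzius-like nuclei, where 0.0173% to 0.739% of genes were called) and the header version as a block 1 (Kcnmb2 up in Cajal-Retzius-like, deletion, 1.68% of genes). In the comparison of the deletion with against without P301S, Pvalb-like nuclei had 2 members called by DESeq2 (Kcnd3 down, Kcnh7 up, 1.2% of genes), 2 with no filter (Kcnh7 and Kcnq3 up, 0.794%) and 1 with the header version as a block (Kcnmb2 down, 0.276%), and Sst-like nuclei 1 with no filter (Kcnd2 up, 0.529%). For Cgas-/- against Cgas+/+ without P301S, no filter called Kcnd2 (down, 0.169% of genes) in Cajal-Retzius-like nuclei. Of the other potassium channel genes DESeq2 made 3 calls and no filter 5 in the transgene, deletion and heterozygous comparisons, where they called 0.0791% to 0.811% and 0.029% to 1.52% of genes. The causes were not tested. Omissions of a mouse were run in excitatory, inhibitory, dentate granule-like, CA1-like and CA3-like nuclei, and those not named above left counts of members called at 0.

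Signs turned for differences near 0 of Kcnc1 and Kcnc2 in inhibitory nuclei. With nuclei over 4000 genes kept, Kcnc1 was at 0.0133 (heterozygous) and -0.0193 (transgene). Over omissions Kcnc1 ran from -0.118 to 0.0623 (heterozygous) and from -0.0187 to 0.0953 (transgene), and Kcnc2 from -0.0196 to 0.207 (deletion) and from -0.0661 to 0.0664 (heterozygous). The highest class stayed the same for 29 of 31 members in libraries without the transgene (not Kcna3 and Kcnn3), 31 with doublets kept and 30 with nuclei over 4000 genes kept. The highest excitatory subtype stayed the same for 30, 31 and 29 members in the same order, and the highest interneuron subtype for 27, 31 and 29. Kcna3 (59 UMIs in excitatory nuclei) was too low for any comparison.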
